A study of Homo sapiens with 12 samples.

Results

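The genes described here were the collagens and the enzymes that modify, trim and cross-link them, followed in MRC5 human embryonic lung fibroblasts. They were chosen by a rule on gene names, set with earlier results of these data known. The rule takes every gene whose symbol begins with COL and names an alpha chain. It adds the prolyl 4-hydroxylase subunits P4HA1 to P4HA3, the lysyl hydroxylases PLOD1 to PLOD3, LOX and LOXL1 to LOXL4, and PCOLCE, PCOLCE2 and BMP1. This gave 58 of the 57500 genes in the count table, 44 collagen chains and 14 enzymes or enhancers. Of these, 42 passed the filter on low counts and were tested, 29 chains and 13 enzymes. A member that is high in only 1 group can pass that filter through that group.

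RNA sequencing covered 4 groups of 3 libraries. Proliferating cells (Prol) received no X-rays, whereas the other groups received 20 Gy and were collected 10 to 12 days later, when they were senescent. Sen(IR) was irradiated only. Sen(IR)+UK5099 also received 100 μM UK5099, an inhibitor of the mitochondrial pyruvate carrier, from day 1 after irradiation. Sen(IR)+CTPI2 received CTPI2, an inhibitor of the mitochondrial citrate carrier SLC25A1, from the same day. The study names CTPI2 doses of 15 and 30 μM without saying which was sequenced. It gives the 10 to 12 days for irradiated cells in general, and says that the inhibitors stayed on the cells for 12 days. Whether treated and untreated senescent cells were collected on the same day is therefore not clear. All cells were MRC5, a single line, grown with serum in atmospheric oxygen, and no group with vehicle alone is named. The study describes its RNA sequencing as made on independent conditions or experiments, while the labels do not say that replicates were separate cultures, so p-values measure the spread between these libraries, which may in part be technical.

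Collagens are built from 3 alpha chains wound into a triple helix. Inside the endoplasmic reticulum, prolyl 4-hydroxylase makes the hydroxyproline that keeps the helix stable at body temperature, and lysyl hydroxylases prepare the lysines that will later be cross-linked. Outside the cell, proteinases remove the propeptides and lysyl oxidases start the covalent cross-links. Fibrillar chains form the banded fibrils of connective tissue, type IV forms the mesh of basement membranes, type VI forms beaded filaments, type VIII forms a short-chain network, and FACIT collagens sit on the surface of fibrils. Lung fibroblasts are a main source of interstitial collagen.

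The libraries held 20597736 to 28245693 counted reads. Levels are given as CPM, counts per 1000000 counts of the TMM-scaled library, in the order of replicates 1, 2 and 3. All 8 fibroblast markers were tested, and their summed level was 7824 to 8702 CPM for Prol, 6024 to 6160 for Sen(IR), 6033 to 6330 for the CTPI2 group and 5155 to 5481 for the UK5099 group. The 4 epithelial markers summed to 0.606 to 1.34 CPM over all libraries and the 4 endothelial markers to 0.736 to 6.23 CPM. Among leukocyte markers, CD14 averaged 0.192 CPM in Prol, 3.32 in Sen(IR), 2.57 with UK5099 and 4.28 with CTPI2, and PTPRC averaged at most 0.274 CPM in every group. KRT5 and KRT14 were at 0 in Prol, Sen(IR) and Sen(IR)+CTPI2, and CDH5 and CD3E averaged at most 0.0731 CPM in every group. By the test used for the members, fibroblast markers moved too. In Sen(IR) against Prol 1 of the 8 rose and 3 fell, and with UK5099 3 fell, PDGFRA at -0.95, THY1 at -0.76 and S100A4 at -1.26, while VIM, FBLN1, PDGFRB, LUM and DCN were not called. CD14 rose in Sen(IR) (log2 fold change 4.09, adjusted p = 5.06e-11), and the endothelial marker KDR fell both in Sen(IR) (-2.13) and with UK5099 (-1.78). Whether these markers had a part in the collagen values was not tested. In bulk samples fewer cells of a type and less RNA per cell cannot be told apart. Prol replicate 2 stood somewhat apart within its group: it was the highest of the 3 Prol libraries for 22 of the 29 chains tested. Values without it are therefore given where they change a call. CTPI2 replicate 3 stood apart too. Its mean chi-square per gene, a spread set against counting noise, was 8.73 and 7.77 against CTPI2 replicates 1 and 2. Those replicates gave 2.82 between them. Prol libraries gave 11.3 for replicates 1 and 2, 8.07 for 1 and 3 and 13.6 for 2 and 3. The spread in Prol was thus wide without replicate 2 as well.

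In irradiated senescent cells collagen genes moved in both directions, as did genes at large, and with UK5099 most of the collagen genes were lower. With edgeR's quasi-likelihood test, Benjamini-Hochberg adjustment over 16251 genes, an adjusted p under 0.05 and an absolute log2 fold change above 0.5, 16 of the 42 members tested rose and 12 fell in Sen(IR) against Prol, where 24.8% of all genes tested rose and 22.4% fell. The members' median log2 fold change was 0.12, against 0.014 for all genes tested. With UK5099 against Sen(IR), 2 members rose and 26 fell, beside 8.76% of all genes that rose and 12.1% that fell. The median of the 42 members was then -0.77, against 0.0099 for all genes. A negative fold change was found for 36 of the 42, beside 7963 of all 16251 genes tested. With CTPI2 no member rose or fell, in a comparison where 0.0185% of all genes rose and 0.148% fell. The comparisons with UK5099 and with CTPI2 share the Sen(IR) libraries, and the first comparison uses them too.

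**Figure D1:**
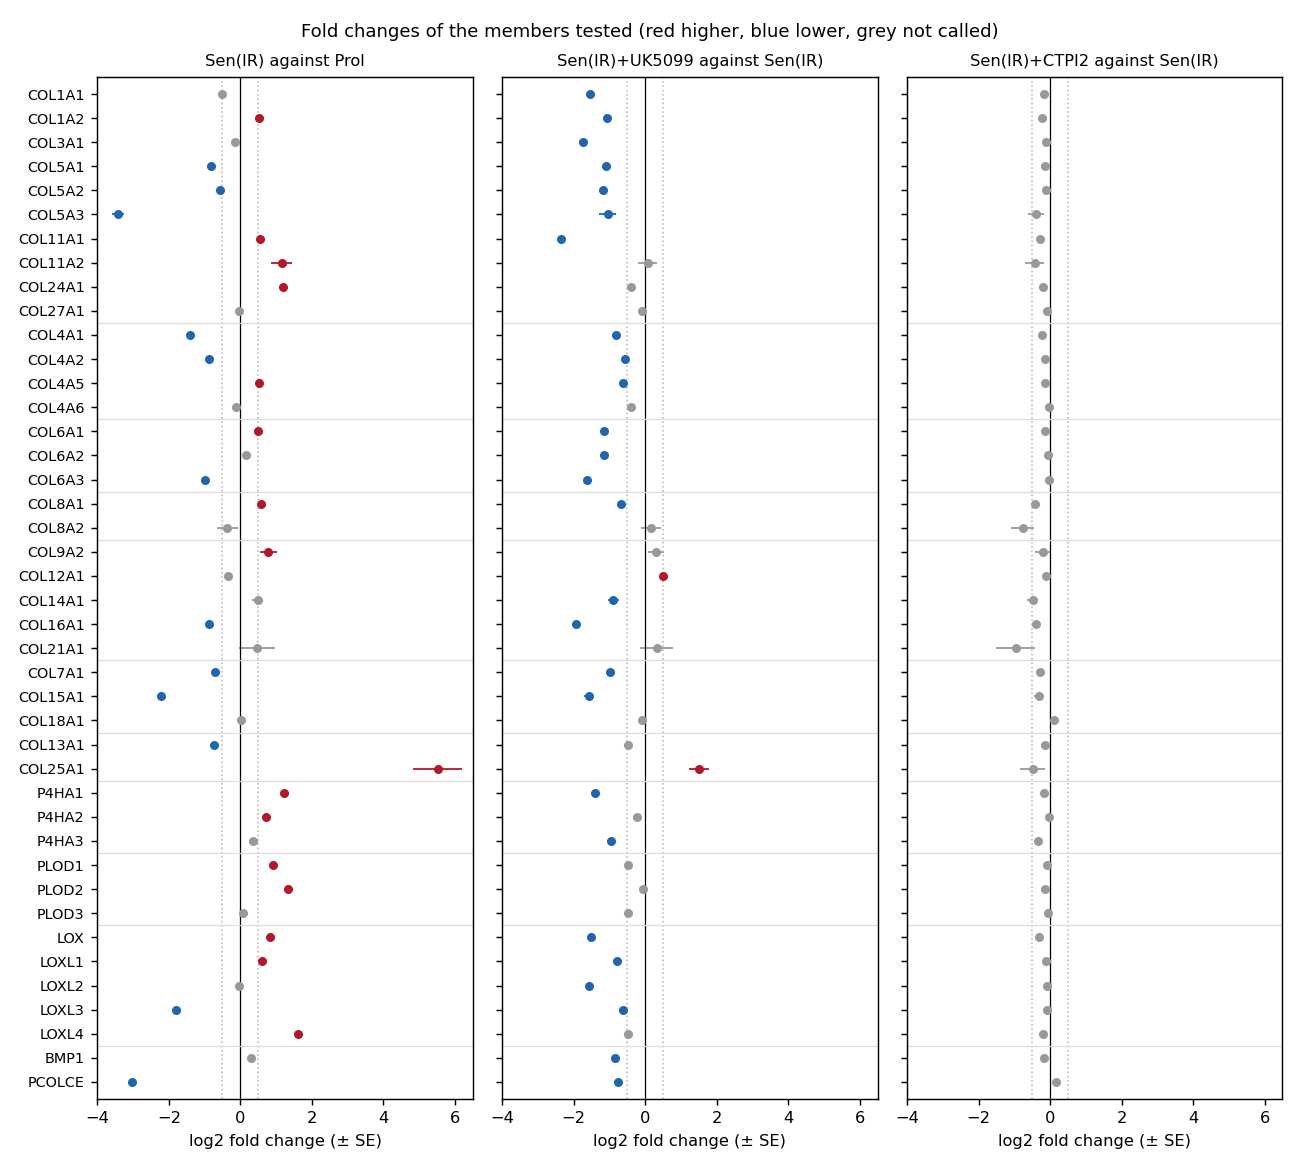
Log2 fold change with its standard error (x axis) of the 42 members tested (y axis, grouped by class with grey lines between classes) in 3 comparisons; red points rose, blue points fell, grey points did not pass the test, and dotted lines mark a log2 fold change of 0.5 either way. In the left panel points lie on both sides (16 higher, 12 lower), in the middle panel 26 lie to the left and COL12A1 and COL25A1 to the right, and in the right panel all are grey; the fitted value of COL25A1 in the left panel rests on 1 read in Prol.

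As a share of all counted reads, the collagen chains together made up 2.73 to 3.31% of Prol libraries, 2.46 to 2.54% of Sen(IR) libraries, 2.15 to 2.37% of CTPI2 libraries and 1.19 to 1.33% of UK5099 libraries. The UK5099 libraries lay below every other library. The fibrillar chains held most of it: Prol had 1.58 to 1.95%, Sen(IR) 1.65 to 1.69%, UK5099 libraries 0.685 to 0.765% and CTPI2 libraries 1.398 to 1.56%, so that their summed share overlapped between Prol and Sen(IR). The basement membrane share was 0.520 to 0.597% for Prol and 0.278 to 0.287% for Sen(IR), without overlap. FACIT chains had a share of 0.128 to 0.153% with UK5099 against 0.102 to 0.113% in Sen(IR) and 0.112 to 0.139% in Prol, which overlapped the UK5099 range. Most of that share was COL12A1, at a mean of 1222 CPM with UK5099, while COL16A1 and COL14A1 fell.

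**Figure D2:**
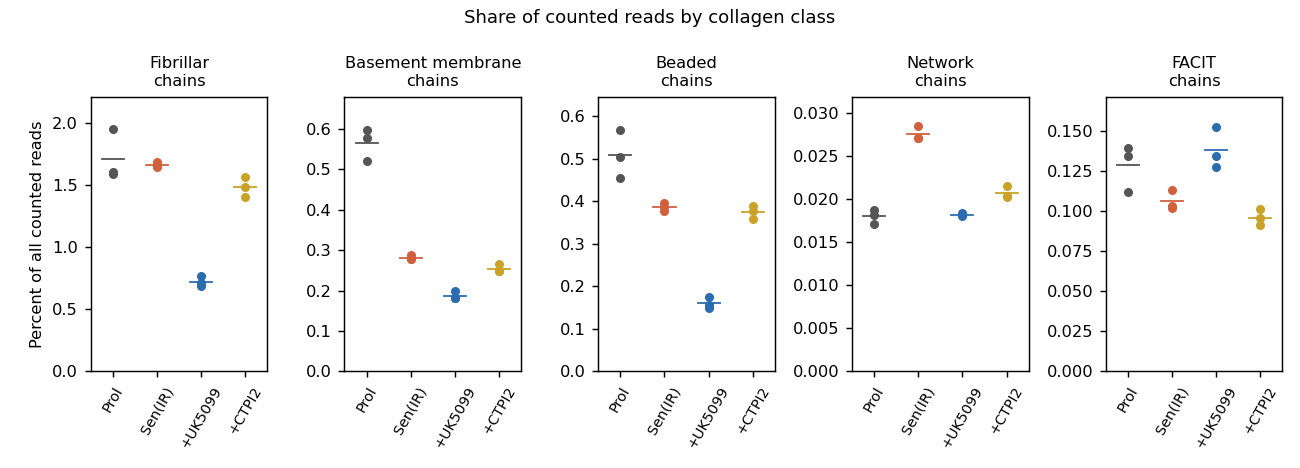
Percent of all counted reads (y axis, from 0) held by the chains of 5 collagen classes in each library (points) of the 4 groups, with the group mean as a line. Basement membrane and beaded chains are lower in Sen(IR) than in Prol, fibrillar chains overlap between those groups, and UK5099 libraries are lowest in every class but network and FACIT chains.

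Among the fibrillar chains, 10 of 11 were tested. In Sen(IR) against Prol 4 rose and 3 fell (40% and 30%, beside 24.8% and 22.4% of all genes tested). The partner chains of type I moved apart. COL1A2, the alpha 2 chain of type I collagen, stood at 4598, 5848 and 4757 CPM in Prol, 7215, 7442 and 7308 in Sen(IR), 3737, 3514 and 3307 with UK5099 and 6166, 6565 and 5915 with CTPI2. It rose in Sen(IR) (log2 fold change 0.53 ± 0.069, adjusted p = 4.62e-07) with no overlap between the groups, although the value was 0.47 without Prol replicate 1 and 0.49 without Prol replicate 3, under the limit of 0.5. COL1A1, the alpha 1 chain that supplies 2 of the 3 strands of the type I helix, stood at 6456, 7213 and 6329 CPM in Prol, 4681, 4820.0 and 4642 in Sen(IR), 1719, 1580.0 and 1504 with UK5099 and 4148, 4421 and 3890.0 with CTPI2. Every Sen(IR) library was below every Prol library, but the fold change of -0.4998 ± 0.059 (adjusted p = 1.03e-07) lay just inside the limit, so it was not called. It passed at -0.52 without Prol replicate 1, -0.54 without Prol replicate 3, -0.52 without Sen(IR) replicate 2 and -0.52 in a fit of the 2 groups alone.

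COL3A1, the chain of type III collagen, which accompanies type I in distensible tissue, stood at 2608, 3810.0 and 2715 CPM in Prol, 2722, 2797 and 2738 in Sen(IR), 849, 811 and 797 with UK5099 and 2533, 2699 and 2388 with CTPI2. Prol and Sen(IR) overlapped, and the difference did not pass the test (log2 fold change -0.15 ± 0.09, adjusted p = 0.157). Prol replicate 2 was well above its group, and without it the value was 0.0483. Type V collagen, which sits within type I fibrils and limits their width, was lower in senescence for each of its chains. COL5A1 stood at 692, 770.5 and 623 CPM in Prol, 399, 406 and 386 in Sen(IR), 204, 179 and 179.6 with UK5099 and 349, 384 and 339 with CTPI2, a log2 fold change of -0.81 ± 0.068 in Sen(IR) (adjusted p = 4.6e-10). COL5A2 averaged 2299 CPM in Prol and 1538 in Sen(IR), a log2 fold change of -0.58 ± 0.06 that was -0.498 without Prol replicate 2 and -0.46 with upper-quartile scaling, both under the limit. The largest fall of the class belonged to COL5A3, at 17.96, 21.9 and 18.5 CPM in Prol, 1.78, 1.52 and 2.16 in Sen(IR), 0.828, 0.779 and 1.01 with UK5099 and 1.58, 1.57 and 0.953 with CTPI2. Its log2 fold change in Sen(IR) was -3.42 ± 0.16 (adjusted p = 1.53e-14), with no Sen(IR) library near any Prol library.

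COL24A1, COL11A1 and COL11A2, minor fibrillar chains, went the other way in senescence. COL24A1, a chain known from developing bone, stood at 11.6, 9.703 and 9.03 CPM in Prol, 21.4, 23.04 and 24.6 in Sen(IR), 16.9, 15.6 and 20.3 with UK5099 and 19.7, 21.1 and 19.1 with CTPI2, a log2 fold change of 1.19 ± 0.11 in Sen(IR) (adjusted p = 1.5e-09). COL11A1, a chain of the type XI collagen best known from cartilage, stood at 23.2, 23.96 and 20.1 CPM in Prol, 32.3, 34.2 and 31.7 in Sen(IR), 6.33, 5.53 and 7.402 with UK5099 and 24.8, 29.1 and 26.2 with CTPI2. It rose by 0.55 in Sen(IR), or 0.47 without Prol replicate 3. COL11A2 was scarce, with a mean of 0.742 CPM in Prol and 1.65 in Sen(IR) (log2 fold change 1.16 ± 0.3, adjusted p = 0.00146). COL27A1 averaged between 27.7 and 30.1 CPM in all 4 groups and passed no test, and COL2A1, the cartilage type II chain, was not tested.

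With UK5099 7 of the 10 fibrillar chains fell and none rose by edgeR or by DESeq2 (8 of the 10 had an unadjusted p under 0.05, beside 51.6% of all genes tested), with a median of -1.07. Of all genes tested 12.1% fell and 8.76% rose by edgeR. The steepest was COL11A1, at -2.35 ± 0.1 (adjusted p = 2.06e-14), which put it below every Prol library too. COL3A1 followed at -1.75 ± 0.093 (adjusted p = 6.88e-13), then COL1A1 at -1.56 ± 0.06 (adjusted p = 2.33e-15). For these chains no UK5099 library overlapped any other group. COL5A1, COL5A2, COL5A3 and COL1A2 fell too, with log2 fold changes of -1.08, -1.19, -1.05 and -1.06. COL24A1 had a log2 fold change of -0.39 ± 0.1 and was not called, although it was -0.504 without UK5099 replicate 3. COL11A2 and COL27A1 had values of 0.0719 and -0.0809, and their libraries overlapped with Sen(IR).

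**Figure D3:**
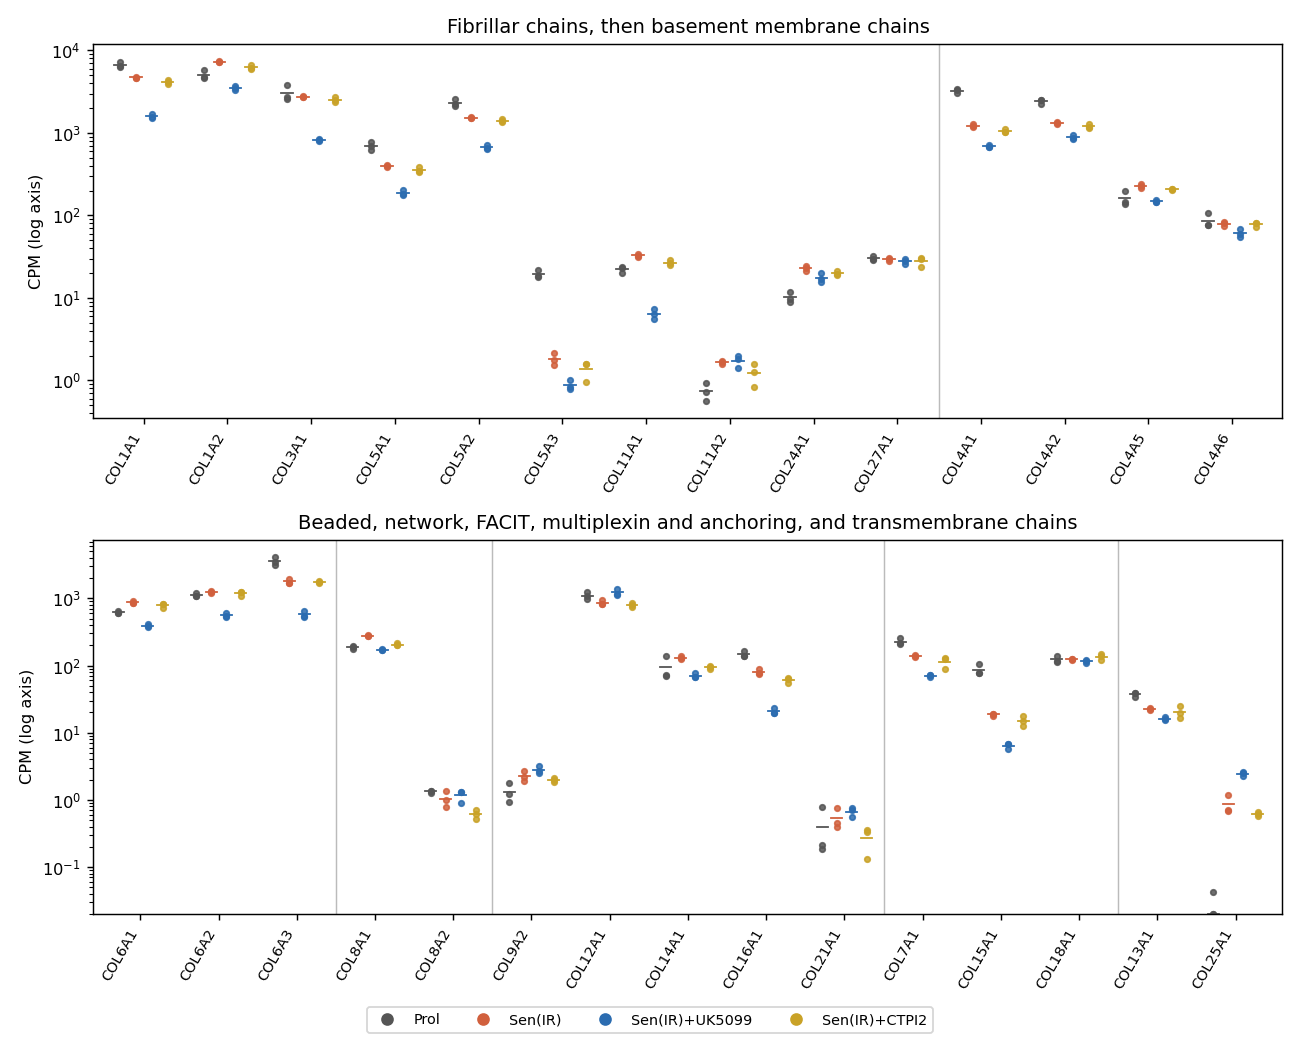
CPM on a log axis (y) for the 29 collagen chains tested (x), with 1 point per library and a short line at the mean of each group; grey vertical lines separate classes, and libraries of COL25A1 at 0 are drawn on the lower edge. The blue UK5099 points are the lowest group for most abundant chains such as COL1A1, COL3A1 and COL6A3, and the highest group for COL12A1 and COL25A1.

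Basement membrane chains split by pair. Of 6, 4 were tested, COL4A1, COL4A2, COL4A5 and COL4A6, and COL4A3 and COL4A4, which form the adult kidney and lung network with COL4A5, were too low. COL4A1 stood at 3279, 3402 and 3006 CPM in Prol, 1209, 1267 and 1193 in Sen(IR), 712, 680.1 and 674 with UK5099 and 1014, 1109 and 1032 with CTPI2. In Sen(IR) it fell to well under its Prol level (log2 fold change -1.400 ± 0.053, adjusted p = 3.45e-16) and fell again with UK5099 (-0.83 ± 0.053, adjusted p = 1.53e-11). COL4A2, its partner in the common type IV trimer, stood at 2492, 2522 and 2239 CPM in Prol, 1306, 1342 and 1293 in Sen(IR), 954, 857 and 833 with UK5099 and 1159, 1267 and 1171 with CTPI2. It fell by 0.88 in Sen(IR) and fell by 0.58 more with UK5099. Neither gene had libraries that overlapped between Prol, Sen(IR) and Sen(IR)+UK5099.

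COL4A1 and COL4A2 lie head to head on chromosome 13 and are read in opposite directions from a short shared stretch, which is shown because both fell together. In the RefSeq table for GRCh38.p14 the bases between their starts are chr13:110307158-110307283, 126 bases, read here on the plus strand, in the direction of COL4A2, with the letters of a CCAAT match and of a GGGCGG match in capitals.
COL4A1-COL4A2: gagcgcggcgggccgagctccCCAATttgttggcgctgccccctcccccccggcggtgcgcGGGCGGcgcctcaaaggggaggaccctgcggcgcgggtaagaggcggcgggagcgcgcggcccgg
Within the 250 bases before a gene's start, CCAAT on either strand was found for 33% of 27305 genes and for 12 of the 43 members with an entry, among them COL4A1, COL4A2, COL4A5 and COL4A6. GGGCGG was found for 42.3% of genes and 25 of the 43 members. The windows of COL4A1 and COL4A2 overlap, so the CCAAT and GGGCGG matches shown count for both genes. COL4A5 and COL4A6, which also lie head to head, may likewise share a match. A match describes letters only. BMP1, COL14A1, COL1A1, COL1A2, COL20A1, COL22A1, COL2A1, COL3A1, COL5A2, COL6A1, COL6A5, COL8A1, COL9A3, LOXL2 and P4HA3 had no entry.

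COL4A5 and COL4A6, the X-linked pair of the type IV family, did not follow that fall. This pair also lies head to head. In GENCODE, COL4A6 ends at base 108439497 on the minus strand and COL4A5 starts at 108439838 on the plus strand. COL4A4 and COL4A3 lie head to head on chromosome 2, so the arrangement is not particular to COL4A1 and COL4A2. COL4A5 stood at 146, 199 and 139 CPM in Prol, 217, 229 and 243 in Sen(IR), 154, 145 and 146 with UK5099 and 210.0, 206 and 208 with CTPI2. It rose by 0.51 in Sen(IR) (adjusted p = 1.86e-05), a value that dropped below the limit without Prol replicate 1 (0.44), Prol replicate 3 (0.41) or Sen(IR) replicate 3 (0.47), and in a fit of the 2 groups alone (0.49). With UK5099 it fell by 0.63 (adjusted p = 3.26e-06). COL4A6 had log2 fold changes of -0.12 in Sen(IR), where libraries overlapped with Prol, and -0.39 with UK5099, neither called.

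The beaded-filament chains of type VI collagen, COL6A1, COL6A2 and COL6A3, differed from each other in senescence but not in direction with UK5099. COL6A3, the long chain, stood at 3529, 4065 and 3101 CPM in Prol, 1711, 1930.0 and 1715 in Sen(IR), 652, 549.7 and 523 with UK5099 and 1685, 1787 and 1772 with CTPI2. It fell by 0.998 on the log2 scale in Sen(IR) (adjusted p = 2.76e-10). COL6A1 stood at 605, 649 and 595 CPM in Prol, 899, 856 and 867 in Sen(IR), 421, 388 and 369 with UK5099 and 812, 836 and 712 with CTPI2, a rise of 0.505 that barely passed: it was 0.49 without Prol replicate 1, 0.48 without Prol replicate 3, 0.48 without Sen(IR) replicate 1 and 0.49 in a fit of the 2 groups alone. COL6A2 stood at 1093, 1189 and 1073 CPM in Prol, 1293, 1235 and 1220.0 in Sen(IR), 598, 552 and 525 with UK5099 and 1236, 1259 and 1087 with CTPI2, and its difference of 0.16 was under the fold limit. All 3 fell with UK5099, COL6A3 at -1.64 (adjusted p = 3.31e-13), COL6A1 at -1.16 and COL6A2 at -1.16, and no UK5099 library reached the level of any other library for these genes. COL6A5 and COL6A6 were not tested.

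In the network class, COL8A1, a type VIII chain made by mesenchymal and endothelial cells, stood at 187, 194 and 178 CPM in Prol, 272, 287 and 272 in Sen(IR), 171, 175 and 170.2 with UK5099 and 201, 214 and 201 with CTPI2. It rose by 0.57 in Sen(IR) (adjusted p = 6.3e-10) and fell by 0.69 with UK5099 (adjusted p = 1.26e-10), to a range below that of Prol. It was also the member with the smallest adjusted p under CTPI2, 2.27e-05, at a log2 fold change of -0.43 ± 0.049 that stayed under the limit of 0.5. COL8A2 averaged 0.613 to 1.34 CPM and overlapped between Prol, Sen(IR) and Sen(IR)+UK5099, and COL10A1 was not tested.

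FACIT chains moved in different directions. COL12A1, the type XII chain that links fibrils in tendon and stressed tissue, stood at 1232, 1098 and 962 CPM in Prol, 819, 933 and 823 in Sen(IR), 1359, 1133 and 1174 with UK5099 and 742, 846 and 809 with CTPI2. It was lower in every Sen(IR) library than in every Prol library, at a fold change of -0.35 that was not called, and with UK5099 it was higher than in every Sen(IR) library (log2 fold change 0.51 ± 0.079, adjusted p = 1.46e-05). That rise was close to the limit: it was 0.48 without Sen(IR) replicate 1, 0.48 without Sen(IR) replicate 3 and 0.43 without UK5099 replicate 1. COL16A1, a chain found on fibrils in skin and other connective tissue, stood at 141, 162 and 141 CPM in Prol, 89.2, 74.04 and 77.2 in Sen(IR), 23.4, 19.4 and 19.7 with UK5099 and 65.8, 63.1 and 55.6 with CTPI2. It fell by 0.88 in Sen(IR) (adjusted p = 1.46e-09) and fell by 1.94 with UK5099 (adjusted p = 4.63e-14).

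COL14A1, a chain of type XIV collagen on mature fibrils, stood at 70.2, 138 and 73.1 CPM in Prol, 129, 140.0 and 124 in Sen(IR), 67.6, 66.7 and 78.4 with UK5099 and 93.6, 99.96 and 87.7 with CTPI2. Prol replicate 2 lay within the Sen(IR) range while the other two lay far below it, so the groups overlapped. The fold change of 0.49 ± 0.15 was not called. It passed at 0.87 without Prol replicate 2, 0.5001 without Sen(IR) replicate 1 and 0.52 without Sen(IR) replicate 3. COL14A1 also passed with RLE scaling (0.503), upper-quartile scaling (0.61) and a fit with a term for replicate number (0.52). With UK5099 it fell by 0.89 (adjusted p = 6.62e-05). COL9A2 was low, at 1.24, 1.803 and 0.929 CPM in Prol, 2.71, 1.896 and 2.16 in Sen(IR), 2.65, 2.48 and 3.18 with UK5099 and 2.105, 1.86 and 1.95 with CTPI2. Its rise in Sen(IR) (0.78 ± 0.24, adjusted p = 0.00721) was lost without Prol replicate 3 (0.57) or Sen(IR) replicate 1 (0.63). COL21A1 reached at most 0.773 CPM in any library and passed no test, though without Prol replicate 2 it was called higher in Sen(IR) at 1.396. COL9A1, COL9A3, COL19A1, COL20A1 and COL22A1 were not tested.

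Of the multiplexins and the anchoring-fibril chain, COL7A1, which anchors basement membrane to the tissue beneath, stood at 258, 207 and 214 CPM in Prol, 139.5, 142 and 136 in Sen(IR), 72.2, 66.3 and 72.3 with UK5099 and 129, 124 and 89.8 with CTPI2. It fell by 0.702 in Sen(IR) and fell by 0.99 with UK5099 (adjusted p = 2.57e-08). COL15A1, a multiplexin at the outer face of basement membranes, stood at 78.4, 105 and 77.8 CPM in Prol, 19.3, 19.3 and 17.9 in Sen(IR), 6.79, 6.68 and 5.697 with UK5099 and 15.2, 17.8 and 12.5 with CTPI2. Its log2 fold change was -2.21 in Sen(IR) (adjusted p = 6.91e-14), lower than for every chain tested but COL5A3, and -1.56 with UK5099. COL18A1, the other multiplexin and source of endostatin, averaged 116 to 135 CPM over the groups and passed no test, with 18.5% of its exon bases shared with SLC19A1.

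Of the transmembrane chains, COL13A1 and COL25A1 were tested and moved in opposite directions in senescence. COL13A1, found at cell adhesions, stood at 39.5, 34.3 and 39.4 CPM in Prol, 21.7, 23.2 and 22.5 in Sen(IR), 16.1, 16.8 and 15.2 with UK5099 and 24.7, 19.98 and 16.6 with CTPI2. It fell by 0.75 in Sen(IR), and its difference with UK5099 of -0.49 lay just inside the limit, at -0.51 without Sen(IR) replicate 1 and -0.52 without UK5099 replicate 2. COL25A1, named here after its values were seen because it lies below the level set for naming, stood at 0, 0.0429 and 0 CPM in Prol, 0.712, 1.19 and 0.687 in Sen(IR), 2.57, 2.299 and 2.48 with UK5099 and 0.658, 0.578 and 0.606 with CTPI2. Prol held 1 read of it in 3 libraries and Sen(IR) 55, a ratio of 63.3 with an exact 95% interval for counting error of 10.9 to 2545. With UK5099 it rose further, by 1.502 ± 0.29 (adjusted p = 0.000178), above every other library. The 16 members that were not tested, which also include COL17A1, COL23A1, COL26A1, COL28A1 and PCOLCE2, reached at most 0.668 CPM in any library, in COL9A3.

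The balance between chains that share a trimer or a fibril was measured within each library as the ratio of CPM per kilobase of exon, which does not depend on scaling between libraries. COL1A1 to COL1A2 was 1.69, 1.48 and 1.60 in Prol, 0.779, 0.778 and 0.763 in Sen(IR), 0.552, 0.540 and 0.546 in Sen(IR)+UK5099 and 0.808, 0.808 and 0.790 in Sen(IR)+CTPI2. No library of Prol, Sen(IR) or Sen(IR)+UK5099 overlapped another of these groups, and the log2 ratio differed by -1.04 in Sen(IR) against Prol and by -0.50 with UK5099. In the exact permutation test both had p = 0.1, two-sided, the smallest that 3 against 3 libraries can give, and 0.1231 after adjustment over the 32 tests of 8 pairs in 4 comparisons. With the length of the canonical transcript, an alternative chosen after the data were seen, the mean ratios were 1.13, 0.552, 0.390 and 0.573, a lower level with the same order.

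COL4A1 to COL4A2 was 1.76 ± 0.0231 (SD, n = 3) in Prol, 1.22 ± 0.0153 in Sen(IR), 1.03 ± 0.0428 in Sen(IR)+UK5099 and 1.15 ± 0.00489 with CTPI2, so the pair fell together but COL4A1 fell further. With the canonical transcript length the means were 1.32, 0.917, 0.772 and 0.865 in the same order. Which of these 2 chains is more abundant in senescent cells therefore depends on the length used. COL6A3 to COL6A1 was 1.48 ± 0.137 in Prol, 0.526 ± 0.0477 in Sen(IR), 0.376 ± 0.0197 in Sen(IR)+UK5099 and 0.575 ± 0.0571 with CTPI2, the widest change among the pairs in Sen(IR) against Prol at -1.496 on the log2 scale. COL6A1 to COL6A2 went from 0.531 ± 0.00465 in Prol to 0.674 ± 0.0093 in Sen(IR) and was 0.677 ± 0.000558 with UK5099, where it overlapped with Sen(IR). In Sen(IR) against Prol COL4A5 to COL4A6 went the other way from COL4A1 to COL4A2, but with UK5099 both ratios were lower than in Sen(IR): COL4A5 to COL4A6 went from 1.46 ± 0.0338 in Prol to 2.26 ± 0.242 in Sen(IR) and 1.92 ± 0.131 with UK5099. COL3A1 to COL1A1 was 0.605 ± 0.0876 in Prol, 0.778 ± 0.00686 in Sen(IR) and 0.683 ± 0.024 with UK5099. COL5A1 to COL5A2 averaged 0.198 in Prol, 0.169 in Sen(IR), 0.182 with UK5099 and 0.166 with CTPI2. Neither its Prol nor its UK5099 libraries overlapped Sen(IR), at log2 differences of -0.23 in Sen(IR) against Prol and 0.107 with UK5099. COL8A1 to COL8A2, whose second chain is scarce, averaged 68.9 in Prol, 138 in Sen(IR), 75.3 with UK5099 and 169 with CTPI2. Each exact permutation p in Sen(IR) against Prol was again 0.1, the smallest possible.

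**Figure D4:**
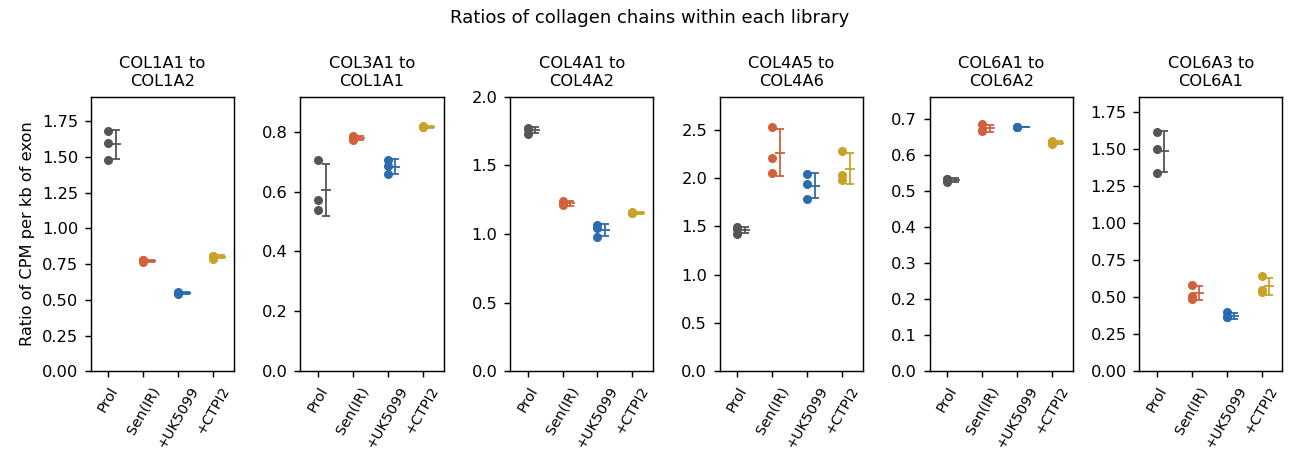
Ratio of CPM per kilobase of exon (y axis, from 0) of 6 pairs of collagen chains in each library (points) of the 4 groups, with the mean and SD of 3 libraries beside the points. COL1A1 to COL1A2 and COL6A3 to COL6A1 drop from Prol to Sen(IR) and again with UK5099, whereas COL4A5 to COL4A6 is higher in Sen(IR) than in Prol.

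Per kilobase of exon the order of the most abundant chains changed as well. Prol had COL1A1 first at 740 CPM per kilobase, then COL1A2 at 469, COL3A1 at 451 and COL5A2 at 314, where COL1A2 and COL3A1 lay within their spread. Sen(IR) had COL1A2 first at 677, then COL1A1 at 523, COL3A1 at 407 and COL6A2 at 234. Sen(IR)+UK5099 kept that order at 326, 178, 121 and 105 CPM per kilobase. These levels use the exon union, which counts the exons of every transcript of a gene.

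Among the enzymes, 7 of the 13 tested rose and 2 fell in Sen(IR) against Prol, and 8 fell and none rose with UK5099. In Sen(IR) these were 53.8% higher and 15.4% lower, beside 24.8% and 22.4% of all genes tested. The 8 that fell with UK5099 were 61.5%, beside 12.1% of all genes that fell and 8.76% that rose. With UK5099 12 had an unadjusted p under 0.05, beside 51.6% of all genes tested, and DESeq2 called no enzyme higher. The hydroxylases carried most of the rise. P4HA1, the main catalytic subunit of prolyl 4-hydroxylase, stood at 248, 279.6 and 259 CPM in Prol, 611, 607 and 610.4 in Sen(IR), 237, 231 and 217 with UK5099 and 536, 558 and 522 with CTPI2. It rose by 1.22 ± 0.052 in Sen(IR) (adjusted p = 3.19e-15) and fell by 1.42 with UK5099 (adjusted p = 1.23e-15), to libraries that all lay below those of Prol. P4HA2, a second catalytic subunit, stood at 98.9, 99.05 and 112 CPM in Prol, 169, 171 and 169.6 in Sen(IR), 150.4, 144 and 141 with UK5099 and 170.2, 169.8 and 155 with CTPI2. It rose by 0.72 in Sen(IR), and its log2 fold change with UK5099 was -0.23, under the limit. P4HA3 stood at 11.4, 11.98 and 11.4 CPM in Prol, 13.97, 15.4 and 15.4 in Sen(IR), 7.87, 6.86 and 8.45 with UK5099 and 12.6, 12.7 and 10.2 with CTPI2, with a log2 fold change of 0.36 in Sen(IR) that was not called and of -0.95 with UK5099, where it fell.

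None of the 3 lysyl hydroxylases was called with UK5099 by edgeR or by DESeq2, nor were P4HA2 and LOXL4, and 2 of the 3 had an unadjusted p under 0.05, beside 51.6% of all genes tested. PLOD2, which hydroxylates the telopeptide lysines that form stable cross-links, stood at 359, 348 and 352 CPM in Prol, 872, 891 and 905 in Sen(IR), 851, 824 and 865 with UK5099 and 792, 809.5 and 806 with CTPI2. It rose by 1.33 ± 0.044 in Sen(IR) (adjusted p = 3.38e-17), and with UK5099 the log2 fold change was -0.0709 ± 0.043 (adjusted p = 0.192), so its level stayed far above every Prol library. PLOD1, which acts on lysines within the helix, stood at 229, 229.5 and 224 CPM in Prol, 434, 434 and 426 in Sen(IR), 322, 309 and 304 with UK5099 and 412, 428 and 373 with CTPI2. It rose by 0.92 in Sen(IR), and with UK5099 it was below every Sen(IR) library at a log2 fold change of -0.47 (adjusted p = 9.57e-08), short of the fold limit. PLOD3, which also adds glucose to hydroxylysine, had log2 fold changes of 0.0743 in Sen(IR) and -0.49 with UK5099. The latter was -0.504 without Sen(IR) replicate 1 and -0.51 without UK5099 replicate 1, past the limit.

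Of the lysyl oxidases, which oxidise lysines and hydroxylysines to start cross-links, 3 rose and 1 fell in Sen(IR), and 4 of 5 fell with UK5099. Of all genes tested 24.8% rose and 22.4% fell in Sen(IR), and 12.1% fell with UK5099. LOX stood at 541, 498 and 551 CPM in Prol, 909, 951 and 988 in Sen(IR), 327, 336 and 327 with UK5099 and 774, 750.1 and 789 with CTPI2. It rose by 0.84 in Sen(IR) (adjusted p = 9.25e-13) and fell by 1.52 with UK5099 (adjusted p = 1.45e-16), to well below Prol. LOXL2 stood at 598, 612 and 604 CPM in Prol, 605, 606 and 575 in Sen(IR), 208, 203 and 187 with UK5099 and 551, 594 and 529.5 with CTPI2. Prol and Sen(IR) overlapped, and only the UK5099 libraries stood apart, with a log2 fold change of -1.58 (adjusted p = 2.11e-16), the largest of the enzymes. LOXL4 stood at 10.7, 12.1 and 9.48 CPM in Prol, 31.8, 34.3 and 32.2 in Sen(IR), 22.9, 24.1 and 23.3 with UK5099 and 26.6, 31.7 and 27.7 with CTPI2, a rise of 1.61 in Sen(IR) (adjusted p = 3.86e-13). Its value of -0.48 with UK5099 was not called, and was -0.51 without Sen(IR) replicate 1 and -0.505 without UK5099 replicate 2.

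LOXL3 went against its relatives in senescence. It stood at 60.9, 72.04 and 67.1 CPM in Prol, 19.4, 20.4 and 18.1 in Sen(IR), 12.3, 13.1 and 12.1 with UK5099 and 18.99, 19.7 and 15.5 with CTPI2, a log2 fold change of -1.79 in Sen(IR) (adjusted p = 2.02e-14) and of -0.63 with UK5099. Since 25.5% of its exon bases are shared with DOK1 and HTRA2, its counts are less certain than those of LOX. LOXL1, which is needed for elastic fibres, stood at 51.5, 53.8 and 56.5 CPM in Prol, 83.5, 78.4 and 84.7 in Sen(IR), 48.9, 49.2 and 44.4 with UK5099 and 78.1, 76.5 and 74.8 with CTPI2. It rose by 0.61 in Sen(IR) and fell by 0.79 with UK5099, and 9.21% of its exon bases are shared with LOXL1-AS1.

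Of the genes for C-propeptide removal, PCOLCE, the enhancer that speeds the cutting of fibrillar procollagen, fell more than any other enzyme gene. It stood at 133, 164 and 150.2 CPM in Prol, 15.6, 19.7 and 19.9 in Sen(IR), 11.4, 10.98 and 10.3 with UK5099 and 23.6, 20.8 and 17.8 with CTPI2. The log2 fold change in Sen(IR) was -3.02 ± 0.098 (adjusted p = 2.47e-17), and with UK5099 it fell by 0.75 more. Of its exon bases 16.8% are shared with PCOLCE-AS1. BMP1, the proteinase that it enhances, stood at 81.1, 75.9 and 83.05 CPM in Prol, 97.6, 100.4 and 99.1 in Sen(IR), 57.1, 55.00 and 52.2 with UK5099 and 87.97, 92.5 and 81.3 with CTPI2. Every Sen(IR) library was above every Prol library at a fold change of 0.31, under the limit, and with UK5099 it fell by 0.85 (adjusted p = 6.62e-11).

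**Figure D5:**
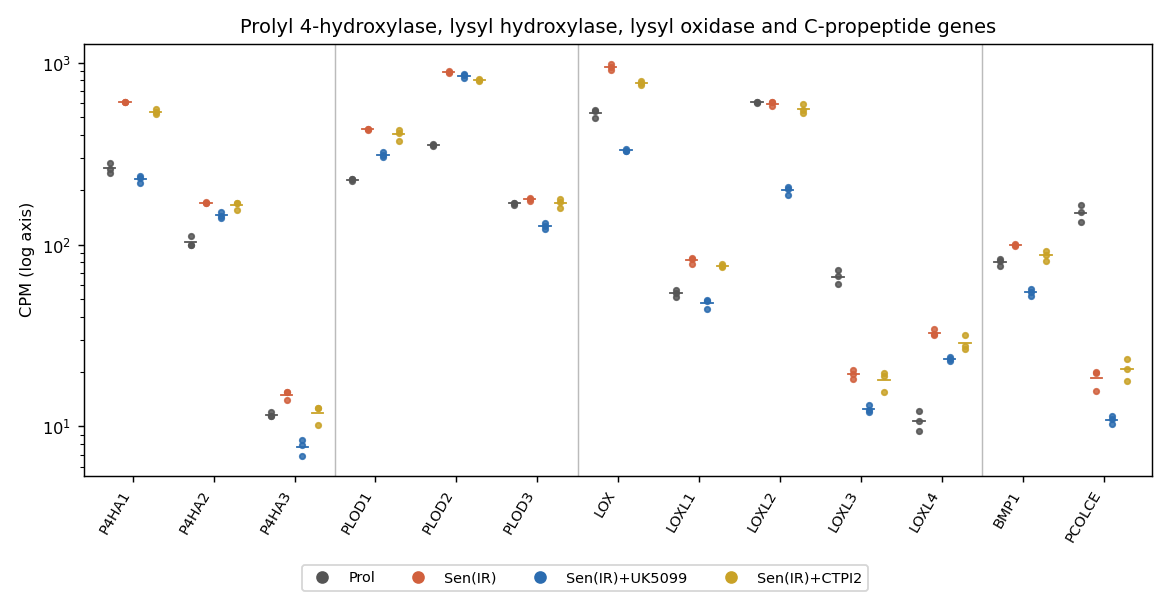
CPM on a log axis (y) for the 13 enzyme and enhancer genes tested (x), with 1 point per library and a short line at the mean of each group; grey vertical lines separate the 4 classes. P4HA1 and LOX are high in Sen(IR) and Sen(IR)+CTPI2 and low with UK5099, PLOD2 stays high in all irradiated groups, and PCOLCE and LOXL3 are highest in Prol.

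The upstream bases of P4HA1 and LOX are shown because both genes rose in Sen(IR) and fell with UK5099. Those of PCOLCE are shown because it had the steepest fall of the enzymes in Sen(IR). Each stretch is the 200 bases before the start in the RefSeq table for GRCh38.p14 (for LOX the first of 3 starts listed), read in the direction of the gene, at chr10:73096867-73097066 on the minus strand for P4HA1, chr5:122078260-122078459 on the minus strand for LOX and chr7:100602163-100602362 on the plus strand for PCOLCE. Capitals mark matches to ACGTG, the core letters of a hypoxia response element, to CCAAT, to GGGCGG and to TATAAA, each on either strand.
P4HA1: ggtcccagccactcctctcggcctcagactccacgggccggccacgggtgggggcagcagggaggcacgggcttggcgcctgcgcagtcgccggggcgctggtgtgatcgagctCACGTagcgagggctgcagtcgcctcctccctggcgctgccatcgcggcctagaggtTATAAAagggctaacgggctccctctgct
LOX: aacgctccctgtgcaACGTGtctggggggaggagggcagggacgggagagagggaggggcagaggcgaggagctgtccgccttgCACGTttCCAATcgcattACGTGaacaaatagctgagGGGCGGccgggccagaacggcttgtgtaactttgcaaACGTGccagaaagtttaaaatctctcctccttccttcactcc
PCOLCE: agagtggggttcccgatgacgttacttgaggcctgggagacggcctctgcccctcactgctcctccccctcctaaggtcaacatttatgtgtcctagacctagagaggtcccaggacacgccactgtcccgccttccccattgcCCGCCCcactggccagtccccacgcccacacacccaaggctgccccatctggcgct
Within 250 bases before the start, ACGTG on either strand was found for 18.7% of 27305 genes and for 8 of the 43 members (18.6%). These were P4HA1, PLOD2, LOX, COL4A3, COL5A1, COL6A6, COL12A1 and COL15A1. Of these, PLOD2 rose in Sen(IR) but was not called with UK5099 (-0.0709), and COL12A1 rose with UK5099 (0.51). COL5A1 and COL15A1 fell in both comparisons. Whether the matches had a part in the levels was not tested. TATAAA was found for 11.1% of genes and 6 of the 43 members. No match says only that these letters are not in the window.

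The wider collagen pathway was read from 33 further genes, all of them tested. A list covers folding, modification and export, and another covers N-propeptide removal, fibril partners and uptake. Both were drawn up with earlier results of these data known, so their counts give no independent support to those of the members. In Sen(IR) against Prol 11 of the 33 genes rose and 8 fell (33.3% and 24.2%, beside 24.8% and 22.4% of all genes). The split was 14 and 5 with upper-quartile scaling, which moved the median of all genes by 0.12 on the log2 scale. With UK5099 1 rose and 19 fell (3.03% and 57.6%, beside 8.76% and 12.1% of all genes). Of the 19 genes for folding, modification and export, 5 rose and 5 fell in Sen(IR), and 13 fell with UK5099 (median -0.63) and none rose, where 17 had an unadjusted p under 0.05, beside 51.6% of all genes tested, and DESeq2 also called 19 of the 33 genes lower. P3H2, a prolyl 3-hydroxylase of basement membrane collagen, averaged 186 CPM in Prol, 504 in Sen(IR), 186 in Sen(IR)+UK5099 and 434 in Sen(IR)+CTPI2, with log2 fold changes of 1.43 in Sen(IR) and -1.44 with UK5099. FKBP10, a prolyl isomerase of the endoplasmic reticulum, rose by 0.88 in Sen(IR), and MIA2, a cargo receptor listed under its older symbol CTAGE5, by 0.78.

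SERPINH1, the collagen-specific chaperone HSP47, averaged 1151 CPM in Prol, 437 in Sen(IR) and 268 with UK5099, log2 fold changes of -1.399 in Sen(IR) and -0.71 with UK5099. CREB3L1, a transcription factor that drives collagen genes, fell by 0.800 in Sen(IR), and P3H1, the prolyl 3-hydroxylase of fibrillar chains, fell by 0.69. With UK5099 the steepest falls after P3H2 were KDELR3, a receptor that retrieves chaperones to the endoplasmic reticulum, at -1.17, and P3H4 at -1.09.

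Of the 14 genes for N-propeptide removal, fibril partners and uptake, 6 rose and 3 fell in Sen(IR), and 1 rose and 6 fell with UK5099. In Sen(IR) that was 42.9% higher and 21.4% lower, beside 24.8% and 22.4% of all genes tested. With UK5099 it was 7.14% higher and 42.9% lower, beside 8.76% and 12.1%. The share lower in Sen(IR) and the share higher with UK5099 were thus near those of all genes. The proteinases that cut the N-propeptide all fell in Sen(IR), ADAMTS2 at -1.37, ADAMTS3 at -0.72 and ADAMTS14 at -0.57. ADAMTS14 was the gene that rose with UK5099, by 0.53 (adjusted p = 0.000999). CTSK, the collagen-degrading protease cathepsin K, averaged 20.6 CPM in Prol, 85.7 in Sen(IR), 11.5 in Sen(IR)+UK5099 and 74.3 in Sen(IR)+CTPI2, log2 fold changes of 2.06 and, with UK5099, -2.901. FAP, a membrane protease of activated fibroblasts, averaged 65.2, 145, 13.2 and 125 CPM in the same order, and its log2 fold change with UK5099, -3.45 (adjusted p = 3.01e-21), was further below 0 than that of every collagen chain tested. DDR1, a receptor tyrosine kinase for collagen, rose by 1.75 in Sen(IR), and FMOD, a small proteoglycan of fibrils, by 1.66. ADAMTS3 fell by 1.26 with UK5099.

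CTPI2 left the collagen genes much closer to Sen(IR). No member was called in either direction by edgeR, and DESeq2 called none, while 20 of the 42 had an unadjusted p under 0.05, beside 7.27% of all genes tested. The fold changes were small and mostly negative, 40 of 42, beside 7962 of all 16251 genes tested. Their median was -0.17, against 0.0032 for all genes tested. The adjusted p was under 0.05 for 3 members whose fold change stayed inside the limit: COL8A1 (given above), COL16A1 at -0.38 ± 0.082 (adjusted p = 0.0334) and LOX at -0.300 ± 0.049 (adjusted p = 0.00247). For LOX and COL16A1 every CTPI2 library was below every Sen(IR) library. COL1A1 had a log2 fold change of -0.18 ± 0.059 (adjusted p = 0.308) and COL6A3 of -0.0305 ± 0.081 (adjusted p = 0.972). None of the 33 pathway genes was called with CTPI2 by edgeR or by DESeq2, and 18 had an unadjusted p under 0.05.

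Set against each other directly, the inhibitors differed for most of these genes, at a single dose of UK5099 and a dose of CTPI2 that is not known, so their potency cannot be compared. In Sen(IR)+UK5099 against Sen(IR)+CTPI2, 22 of the 42 members were lower and 3 higher, beside 11.7% and 8.2% of all genes. COL11A1 was lowest in relative terms (-2.06 ± 0.1), followed by COL3A1 (-1.63 ± 0.092) and COL6A3 (-1.605 ± 0.083), and the 3 higher were COL25A1 (1.99 ± 0.3), COL8A2 (0.93 ± 0.31) and COL12A1 (0.61 ± 0.079). The call of COL8A2 was lost without UK5099 replicate 1 or 2 or CTPI2 replicate 3, at values of 0.83, 0.84 and 0.82. PLOD2 had a log2 fold change of 0.0776 ± 0.043 between the inhibitors (adjusted p = 0.153).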

How the data were processed

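Total RNA of 12 MRC5 libraries was sequenced as paired ends. Per the labels, the authors used Trimmomatic 0.36 for trimming and STAR 2.5.2b for alignment, on GRCh38, and deposited raw counts of unique exon reads per gene from featureCounts (Subread 1.5.2); whether the counting used strand is not given in the sources used here. Members and lists were chosen with earlier results of these data known. The deposited counts of 57500 genes were filtered with filterByExpr (16251 genes tested), scaled by TMM and fitted in 1 model of the 4 groups with edgeR 4.0.16 in R 4.3.3, with a quasi-likelihood F test and Benjamini-Hochberg adjustment. A gene rose or fell at an adjusted p under 0.05 and an absolute log2 fold change above 0.5, the fold limit of the study, whose own test was DESeq2 (1.42.0 here, as an alternative). The tests were first run on simulated counts with known changes. Exon length, positions and shared exon bases came from GENCODE v44 on GRCh38. Replicates of a group differed by more than sampling noise. Values in each library are given, in every class, for the member with the highest mean and up to 3 called members with the largest fold change in each of the first 2 comparisons above a mean log2 CPM of 1, and of each pathway list up to 3 genes in each direction. Intervals cover counting error only. A gene of the leukocyte marker list, and that list's sum, are not reported here. Alternatives were DESeq2, RLE and upper-quartile scaling, TMM without the members, no filter, a fit of 2 groups, a replicate block, other limits and leaving out each library.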

Additional observations from a re-analysis of the deposited data

How the results depend on the processing

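With an absolute log2 fold change above 1, 6 members rose and 5 fell in Sen(IR) against Prol. With UK5099 against Sen(IR) 1 rose and 15 fell, and with UK5099 against CTPI2 1 was higher and 12 lower. Of the pathway genes, in the same order, 5 rose and 2 fell, 0 rose and 8 fell, and 0 were higher and 6 lower. Shares of all genes at that limit are not given, so these counts cannot be set against genes at large. With an unadjusted p, 1 member fell and 1 pathway gene rose with CTPI2, and 2 pathway genes rose with UK5099. That last count was also 2 with upper-quartile scaling, with no filter, with the 2 groups alone and with the replicate block, against 1, and upper-quartile scaling left 5 pathway genes that fell in Sen(IR). Leaving out 1 library gave 11 to 18 members higher in Sen(IR) against Prol, against 16. The count was 11 without Prol replicate 3, 13 without Prol replicate 1 and 18 without Prol replicate 2. Leaving out 1 library also gave 1 to 2 members higher with UK5099, and 0 to 2 pathway genes higher with UK5099 against CTPI2. The replicate numbers gave no sign of pairing: deviations of same-numbered libraries correlated at -0.0511 to 0.0423 over 18 pairs, 6 of them best with their own number. This cannot show that same-numbered libraries were handled apart, on which the labels are silent. With the replicate block 17 members rose, COL14A1 (0.52) added, and 12 fell in Sen(IR) and 2 rose and 26 fell with UK5099. DESeq2 gave 16 and 12, and 2 and 26. Members that changed sign were all uncalled: with upper-quartile scaling COL27A1 (0.081), COL4A6 (0.0055) and LOXL2 (0.098) in Sen(IR), and without 1 library COL3A1 (-0.25 to 0.0483), COL27A1 (-0.0668 to 0.00313), COL4A6 (-0.196 to 0.0574), COL18A1 (-0.0356 to 0.11) and LOXL2 (-0.0354 to 0.00201) in Sen(IR), and COL11A2 (-0.0449 to 0.21) and COL8A2 (-0.00320 to 0.402) with UK5099. The causes were not tested. With UK5099 against CTPI2, COL5A3 (0.0531 and 0.0884 as adjusted p with no filter and with the 2 groups alone, and 0.0909 to 0.146 without UK5099 replicate 1 or 2 or CTPI2 replicate 1 or 2) and LOXL3 (-0.500 and -0.47 without CTPI2 replicate 1 and 2) lost their calls. Members under about 1 CPM rest on few reads.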
